A study of Mus musculus with 6 samples.

Results

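Transcripts of 7 genes that are used to tell marginal zone B cells from follicular B cells were followed in whole spleens of NOD.B10 mice, a model of primary Sjögren's syndrome (pSS), and of healthy BL/10 controls. The genes were chosen by name (Cr2, Cd1d1, Fcer2a, Cd9, Dtx1, S1pr3 and Notch2), and all 7 were found by symbol among the 47729 genes of the count table and passed the filter on low counts. NOD.B10 (NOD.B10Sn-H2b/J) is the NOD background carrying the H2b haplotype of C57BL/10, so that both strains share the MHC haplotype and differ elsewhere in the genome. All mice were untreated females, with 3 biological replicates for each strain, and 1 library was made from the spleen RNA of each mouse.

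The strain and age of the libraries were not settled by their labels. For all 6 libraries the title and strain field name 1 strain, and the description and the name of the count column name the other. The column names were used here, and every direction below would be reversed under the titles. By the same match, the age field reads 36 weeks for BL/10 replicates 2 and 3 and 26 weeks for the other 4 libraries. The study describes the sequenced strains as matched for age. Total counts were between 15662712 and 18298451 per library. BL/10 replicate 1 stood apart from replicates 2 and 3. It had the highest sum of 17 pan-B cell genes of all 6 libraries (6378 CPM, where CPM is a count scaled by TMM library size). Replicates 2 and 3 had 3609 and 3996 CPM, and the NOD.B10 libraries had between 4636 and 5830 CPM. It also had 12950 CPM of 13 pancreas acinar genes, against 2009 and 109.4 CPM in BL/10 replicates 2 and 3 and at most 31.04 CPM in NOD.B10. Values without this library are given beside the results that it moved.

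Mature B cells of the mouse spleen fall largely into follicular B cells, which recirculate through the follicles and answer with T cell help, and marginal zone B cells, which stay at the border of the white and red pulp and respond quickly to blood-borne antigens. Marginal zone fate depends on the receptor Notch2, which is engaged by the ligand Dll1 on stromal cells and acts in the nucleus through Rbpj and Maml1. Marginal zone B cells carry high CD21 (Cr2), CD1d (Cd1d1) and CD9 (Cd9) and little CD23 (Fcer2a), and they are held in place by receptors for sphingosine-1-phosphate, among them S1pr3. None of these transcripts belongs to marginal zone B cells alone. Cr2 is also made by follicular B cells and follicular dendritic cells, Cd9 by platelets, plasma cells and myeloid cells, S1pr3 by endothelial and stromal cells, and Notch2 by dendritic cells and other myeloid cells.

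In build GRCm38, the genes lie on 6 chromosomes. Cr2 (ENSMUSG00000026616) is on chromosome 1 from 195136811 to 195176716, Cd1d1 (ENSMUSG00000028076) on chromosome 3 from 86995834 to 86999441, and Notch2 (ENSMUSG00000027878) on the same chromosome from 98013527 to 98150361. Dtx1 (ENSMUSG00000029603) is on chromosome 5 from 120680202 to 120711927, Cd9 (ENSMUSG00000030342) on chromosome 6 from 125460266 to 125494791, Fcer2a (ENSMUSG00000005540) on chromosome 8 from 3681737 to 3694175, and S1pr3 (ENSMUSG00000067586) on chromosome 13 from 51408639 to 51422797. Exons of Cd9 shared 218 bases with Gm26728 and those of Notch2 shared 541 bases with Gm42820, and each of these neighbors had 13 counts over all 6 libraries. These counts do not show how many reads of Cd9 or Notch2 were left out in the shared bases. Strand was not used in counting, and reads that fit several genes were left out, which touches Cd1d1, whose close paralog Cd1d2 had between 4 and 11 counts per library.

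Promoters of 5 of the genes are shown because Cr2 and Dtx1 are known to respond to Notch2, because Cd9, Dtx1 and S1pr3 passed the test below, and because Fcer2a is the follicular marker against which the others were set. RefSeq promoter windows (GRCm38.p6, 250 bases before to 50 after the start site) matched 6 of the 7 symbols. Cd1d1 had no entry. Capitals mark TGGGAA or its reverse complement TTCCCA, the core of the motif bound by Rbpj, searched on both strands. Fcer2a has 3 windows in the table, and the one at its most upstream start is printed.
Cr2, chr1:195176670-195176969, minus strand: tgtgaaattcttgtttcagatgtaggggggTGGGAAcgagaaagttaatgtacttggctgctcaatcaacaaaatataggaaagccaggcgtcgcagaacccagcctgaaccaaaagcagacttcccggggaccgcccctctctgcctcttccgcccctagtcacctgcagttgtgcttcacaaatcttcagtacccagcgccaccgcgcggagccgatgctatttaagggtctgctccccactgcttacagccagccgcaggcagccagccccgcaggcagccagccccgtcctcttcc
Cd9, chr6:125494711-125495010, minus strand: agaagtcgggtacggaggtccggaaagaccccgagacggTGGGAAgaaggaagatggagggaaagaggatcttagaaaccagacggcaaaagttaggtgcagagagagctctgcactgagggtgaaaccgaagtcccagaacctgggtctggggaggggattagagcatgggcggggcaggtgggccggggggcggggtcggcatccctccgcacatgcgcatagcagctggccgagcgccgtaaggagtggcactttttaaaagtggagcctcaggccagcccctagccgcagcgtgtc
Dtx1, chr5:120711620-120711919, minus strand: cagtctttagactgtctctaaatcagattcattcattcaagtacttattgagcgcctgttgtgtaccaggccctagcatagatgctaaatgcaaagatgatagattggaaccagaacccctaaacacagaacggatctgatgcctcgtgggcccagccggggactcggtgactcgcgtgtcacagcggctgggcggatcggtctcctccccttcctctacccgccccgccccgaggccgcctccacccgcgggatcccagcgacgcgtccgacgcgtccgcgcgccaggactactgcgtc
S1pr3, chr13:51408368-51408667, plus strand: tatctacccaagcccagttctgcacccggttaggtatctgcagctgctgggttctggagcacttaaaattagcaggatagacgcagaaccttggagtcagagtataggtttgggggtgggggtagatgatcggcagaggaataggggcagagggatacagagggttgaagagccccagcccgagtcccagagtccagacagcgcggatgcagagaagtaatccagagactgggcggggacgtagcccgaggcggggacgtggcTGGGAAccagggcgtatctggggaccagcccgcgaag
Fcer2a, chr8:3694125-3694424, minus strand: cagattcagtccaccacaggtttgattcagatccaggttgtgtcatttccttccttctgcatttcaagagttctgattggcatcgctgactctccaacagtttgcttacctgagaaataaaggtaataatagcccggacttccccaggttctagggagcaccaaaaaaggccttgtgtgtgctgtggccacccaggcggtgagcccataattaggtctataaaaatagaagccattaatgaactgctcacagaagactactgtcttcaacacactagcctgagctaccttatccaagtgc
The core was found in the windows of Cr2, Cd9 and S1pr3 and in 2 of the 3 windows of Fcer2a, and these letters are not in the windows of Dtx1 and Notch2. In Cr2 the match begins 220 bases before the start site and in Cd9 211 bases before it, while in S1pr3 it begins 13 bases after the start. Because 25.6% of 32851 windows of this length hold the core, these matches are a description and do not set the genes apart. The octamer ATGCAAAT (1.74% of windows) and the EBF1 palindrome (0.904% of windows), searched on both strands, were found in no window of the 7 genes.

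Of the 7 genes, 3 passed an adjusted p of 0.05 when the strains were compared with edgeR (quasi-likelihood test), against 17.3% of the 15330 genes tested. S1pr3 and Dtx1 were higher in NOD.B10 spleens (9.11% of all genes were called higher) and Cd9 was lower (8.22% were called lower). Cr2, Fcer2a, Notch2 and Cd1d1 did not pass. At an adjusted p of 0.01, S1pr3 alone was called (6.75% of all genes), and with the replicate number as a block the 3 called genes were again Cd9, Dtx1 and S1pr3 (18.8%). The median log2 fold change of the 7 genes was 0.51, and that of all genes tested was 0.0005987. The libraries of the strains did not overlap for 4 of the 7 genes (Cr2, Cd9, Dtx1 and S1pr3), against 38.0% of all genes. In whole spleen, fewer cells of a type and less RNA per cell cannot be told apart, and all values below are levels of the whole tissue.

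**Figure D1:**
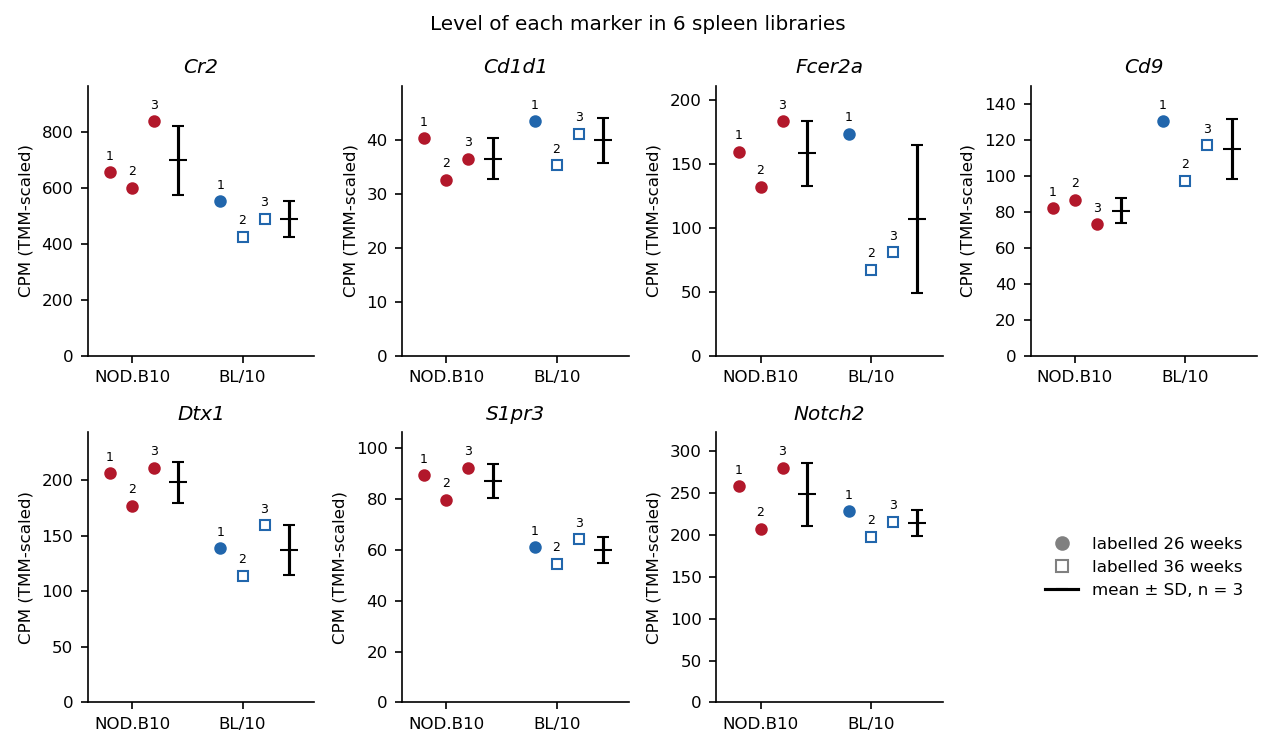
Level of each of the 7 genes in each library, in TMM-scaled CPM, with the replicate number above each point, circles for libraries labelled 26 weeks, open squares for those labelled 36 weeks and black bars for mean ± SD (n = 3). The 3 NOD.B10 libraries lie above all BL/10 libraries for Cr2, Dtx1 and S1pr3 and below them for Cd9, and for Fcer2a BL/10 replicate 1 (173.7 CPM) lies among the NOD.B10 libraries.

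S1pr3, a receptor for sphingosine-1-phosphate that helps to hold B cells in the marginal zone, had the smallest p of the 7 genes. Its levels were 89.35, 79.72 and 92.38 CPM in NOD.B10 replicates 1 to 3 and 61.1, 54.59 and 64.27 CPM in BL/10 replicates 1 to 3. The lowest NOD.B10 library therefore lay above the highest BL/10 library. NOD.B10 averaged 87.15 ± 6.611 CPM and BL/10 59.98 ± 4.936 CPM (SD, n = 3 each), a 1.45-fold difference (log2 fold change 0.54 ± 0.10 SE, edgeR adjusted p = 0.00985). The log2 fold change lay between 0.47 and 0.60 with each replicate left out, and the gene passed in 5 of the 6 fits, missing it without NOD.B10 replicate 1 (edgeR adjusted p = 0.0511), where 8.12% of all genes were called. With the libraries labelled 26 weeks alone it had 0.51 and did not pass (edgeR adjusted p = 0.0758). The 12 endothelial and stromal genes, which mark other cells that make S1pr3, summed to between 919.2 and 1125 CPM in NOD.B10 and between 819.1 and 1082 CPM in BL/10, and 3 of them (Pecam1, Tek and Pdgfra) were called higher in NOD.B10, a count that was between 0 (without BL/10 replicate 2 or NOD.B10 replicate 1) and 3 when single libraries were left out. Of all genes, 9.11% were called higher in the main fit. The part of endothelial and stromal cells in the S1pr3 difference was not tested.

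Dtx1 (Deltex1) encodes a ubiquitin ligase of the Notch pathway whose transcript marks marginal zone B cells. It was present at 206.2, 176.9 and 211.2 CPM in NOD.B10 and at 138.8, 113.9 and 159.2 CPM in BL/10, without overlap. The means were 198.1 ± 18.52 and 137.3 ± 22.69 CPM (SD, n = 3 each), which is 1.44-fold (log2 fold change 0.53 ± 0.14 SE, edgeR adjusted p = 0.0395). The call was close to the threshold, and it was lost without NOD.B10 replicate 1, NOD.B10 replicate 3 or BL/10 replicate 2 (edgeR adjusted p = 0.133, 0.13 and 0.0982), fits in which 8.12%, 8.95% and 10.1% of all genes were called. The log2 fold change stayed between 0.41 and 0.64 in the 6 fits that left out a replicate, and was 0.51 with the libraries labelled 26 weeks alone. Over the 6 libraries, which share the strain difference, Pearson's r of log2 CPM between Dtx1 and the endothelial and stromal sum was 0.848. It was 0.834 with the sum of 15 T cell genes, 0.507 with the pan-B sum and -0.474 with the sum of 12 megakaryocyte and platelet genes. The part of other cells in the Dtx1 difference was not tested.

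Cd9 encodes a tetraspanin that marks marginal zone B cells, B-1 cells and plasma cells, and that is abundant on platelets. Its levels were 82.0, 86.66 and 73.16 CPM in NOD.B10 and 130.2, 97.1 and 116.9 CPM in BL/10, so that all NOD.B10 libraries lay below all BL/10 libraries. With means of 80.6 ± 6.856 and 114.8 ± 16.68 CPM (SD, n = 3 each), Cd9 was 1.42-fold lower in NOD.B10 (log2 fold change -0.51 ± 0.13 SE, edgeR adjusted p = 0.0302). The adjusted p was over 0.05 in edgeR without BL/10 replicate 3 (0.0888) and without NOD.B10 replicates 1, 2 or 3 (0.102, 0.0518 and 0.119), while the log2 fold change stayed between -0.62 and -0.42. Of all genes, 11.2%, 8.12%, 12.9% and 8.95% were called in these fits. Of the 7 genes, only Cd9 passed when the libraries labelled 36 weeks were left out (log2 fold change -0.69, edgeR adjusted p = 0.0264, with 6.19% of all genes called), in a fit in which the lone BL/10 library is assumed to vary like the others.

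Cd9 and platelet genes had a similar but not identical order across the libraries. The 12 megakaryocyte and platelet genes summed to 985.1, 1165 and 792.9 CPM in NOD.B10 and to 1845, 1023 and 1490 CPM in BL/10 replicates 1 to 3. BL/10 replicate 1, followed by replicate 3, was highest in both measures, and NOD.B10 replicate 3 was lowest in both. NOD.B10 replicate 2 had a higher platelet sum than BL/10 replicate 2 but less Cd9 (86.66 against 97.1 CPM). The platelet sums therefore overlapped between the strains, whereas Cd9 did not. Over all 6 libraries, which share the strain difference, Pearson's r of log2 CPM between Cd9 and the platelet sum was 0.951. It was -0.079 with the pan-B sum, -0.492 with the endothelial and stromal sum and -0.846 with the sum of 15 T cell genes. All 12 platelet genes had a negative log2 fold change (median -0.55), and 3 of them (Clec1b, Gp9 and Treml1) were called lower in NOD.B10 (8.22% of all genes). Without BL/10 replicate 1 the median was -0.37 and Clec1b alone was called (edgeR adjusted p = 0.0658 for Gp9 and 0.0728 for Treml1). Leaving out another library gave 6 calls (BL/10 replicate 2), 1 call (BL/10 replicate 3 or NOD.B10 replicates 2 or 3) or no call (NOD.B10 replicate 1). The 10 plasma cell genes went the other way, with 7 called higher (9.11% of all genes) and none lower. The 7 fell to 3 without BL/10 replicates 2 or 3 or NOD.B10 replicates 2 or 3, to 4 without NOD.B10 replicate 1, and to 0 with the libraries labelled 26 weeks alone or with pan-B reads as library sizes. The part of platelets or plasma cells in the Cd9 difference was not tested.

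Cr2 encodes CD21 and CD35, complement receptors that lower the threshold for B cell activation. It had 658, 601.3 and 840.4 CPM in NOD.B10 and 554.3, 426 and 491.9 CPM in BL/10. The libraries did not overlap, but NOD.B10 replicate 3 lay well above the others. From means of 699.9 ± 124.9 and 490.7 ± 64.17 CPM (SD, n = 3 each), its log2 fold change was 0.51 ± 0.16 (SE), and its edgeR adjusted p of 0.0662 missed the threshold. With DESeq2, the package used in the study, Cr2 passed (adjusted p = 0.0188), and so it did in edgeR without BL/10 replicate 1 (0.0359). The 8 follicular dendritic cell genes, which mark another source of Cr2, summed to between 1708 and 1941 CPM in NOD.B10 and between 1396 and 1584 CPM in BL/10. Madcam1 and Clu were called higher among them (4 genes without BL/10 replicate 1 and 1 gene without any other library), and their part in the level of Cr2 was not tested. Of all genes, 9.11% were called higher in the main fit.

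Fcer2a, the follicular marker of the list, encodes CD23, the low-affinity IgE receptor. It had 159.5, 132.3 and 183.5 CPM in NOD.B10, and 173.7, 67.39 and 80.86 CPM in BL/10. BL/10 replicate 1, labelled 26 weeks, therefore lay between NOD.B10 replicates 1 and 3, while both BL/10 libraries labelled 36 weeks lay below every NOD.B10 library. The strain means were 158.4 ± 25.6 and 107.3 ± 57.9 CPM (SD, n = 3 each), and Fcer2a did not pass (log2 fold change 0.56 ± 0.33 SE, edgeR adjusted p = 0.273). Without BL/10 replicate 1 the log2 fold change was 1.08 and Fcer2a passed (adjusted p = 0.00357 from edgeR), in a fit that called 26.3% of all genes and 5 of the 7. With only the libraries labelled 26 weeks it was -0.13 (adjusted p = 0.739 from edgeR). The direction of Fcer2a between the strains therefore rested on which BL/10 libraries were used, and age and library cannot be told apart.

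Notch2, the receptor that drives marginal zone fate, had 258.3, 207.3 and 280.3 CPM in NOD.B10 and 228.5, 198 and 215.6 CPM in BL/10. NOD.B10 replicate 2 lay within the BL/10 range. Its log2 fold change was 0.22 ± 0.13 (SE, edgeR adjusted p = 0.285). Cd1d1, which encodes the lipid-presenting molecule CD1d, was the only gene besides Cd9 with a negative value. It had 40.25, 32.61 and 36.47 CPM in NOD.B10 and 43.39, 35.27 and 41.03 CPM in BL/10, with a log2 fold change of -0.13 ± 0.12 (SE, edgeR adjusted p = 0.459). Neither gene passed in any of the 6 fits that left out a replicate.

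Set per gene length, the order of the 7 mean levels differed between the strains for Fcer2a and Cd9 and for S1pr3 and Cd1d1. As RPKM (CPM per 1000 bases of exon), Cr2 was first in every library, with 87.2 ± 15.56 (SD, n = 3) in NOD.B10 and 61.14 ± 7.995 (SD, n = 3) in BL/10. In NOD.B10 it was followed by Fcer2a (51.23 ± 8.28), Cd9 (39.43 ± 3.354), Dtx1 (37.59 ± 3.514), Notch2 (23.06 ± 3.472), S1pr3 (19.44 ± 1.474) and Cd1d1 (14.18 ± 1.486). In BL/10 it was followed by Cd9 (56.14 ± 8.158), Fcer2a (34.71 ± 18.73), Dtx1 (26.05 ± 4.305), Notch2 (19.85 ± 1.42), Cd1d1 (15.52 ± 1.625) and S1pr3 (13.38 ± 1.101). Cd9 and Dtx1 in NOD.B10 and Fcer2a and Dtx1 in BL/10 changed places between replicates, and these neighbors do not differ beyond their spread. The order of S1pr3 and Cd1d1 was the same in the 3 libraries of each strain and opposite between the strains.

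The balance of marginal zone to follicular transcripts was then read within each library, as the reads of each gene per read of Fcer2a, a ratio that does not depend on library scaling. For Cr2 it was 4.13, 4.55 and 4.58 in NOD.B10 and 3.19, 6.32 and 6.08 in BL/10. BL/10 replicate 1 lay below the 3 NOD.B10 libraries and replicates 2 and 3 lay above them. For Dtx1 the ratio was 1.293, 1.338 and 1.151 in NOD.B10 and 0.799, 1.69 and 1.97 in BL/10, for S1pr3 0.56, 0.603 and 0.504 against 0.352, 0.81 and 0.795, and for Notch2 1.62, 1.57 and 1.53 against 1.31, 2.94 and 2.67. The same arrangement was seen for these 3 genes, with BL/10 replicates 1 and 2 on opposite sides of the NOD.B10 libraries. All these ratios share Fcer2a as denominator, so their common arrangement is not independent evidence from each gene. Fcer2a had 67.39 and 80.86 CPM in BL/10 replicates 2 and 3, against 132.3 to 183.5 CPM in NOD.B10.

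**Figure D2:**
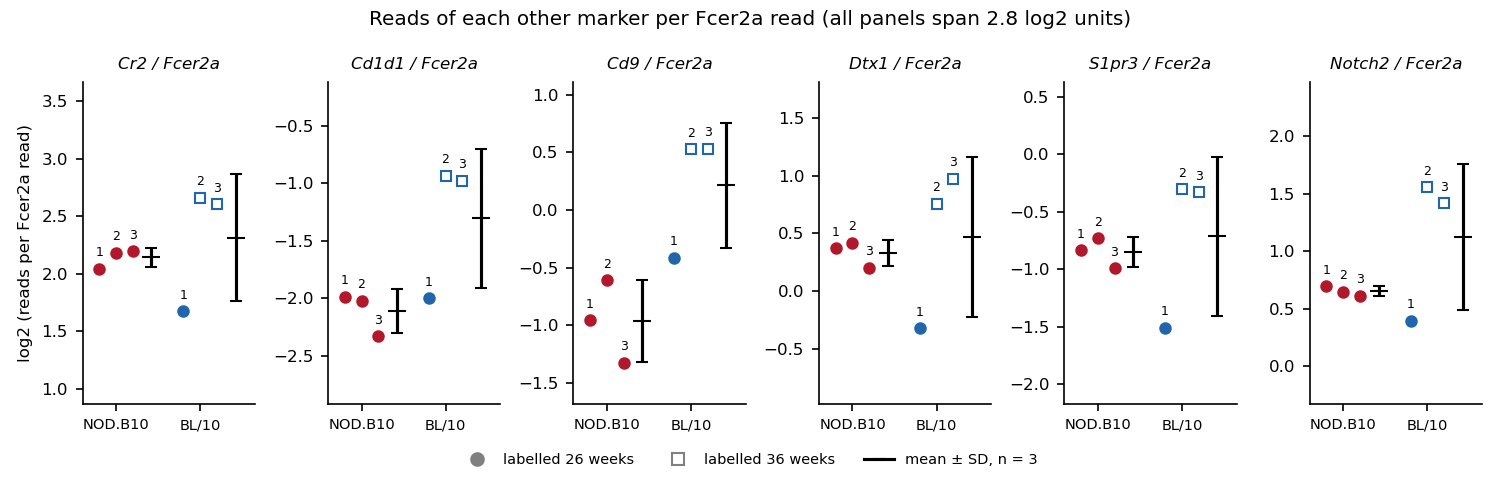
Reads of each of the other 6 genes per Fcer2a read, on a log2 scale, in each library (circles, labelled 26 weeks, open squares, labelled 36 weeks, black bars, mean ± SD, n = 3). BL/10 replicates 2 and 3 lie above all NOD.B10 libraries in each panel, and BL/10 replicate 1 lies below them for Cr2, Dtx1, S1pr3 and Notch2, within their range for Cd1d1 and above them for Cd9. The panels share Fcer2a as denominator and are not independent of each other.

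Only for Cd9 did the strains not overlap in this ratio, with 0.514, 0.655 and 0.399 Cd9 reads per Fcer2a read in NOD.B10 and 0.75, 1.44 and 1.45 in BL/10, where 14.6% of all genes with reads in every library did not overlap in their ratio to Fcer2a. The log2 difference between the strain means was -1.18 for Cd9, -0.81 for Cd1d1, -0.47 for Notch2, -0.17 for Cr2 and -0.14 for Dtx1 and S1pr3. Without BL/10 replicate 1 these differences were -1.50 for Cd9, -1.16 for Cd1d1, -0.83 for Notch2, -0.49 for Cr2, -0.54 for Dtx1 and -0.53 for S1pr3. With other libraries left out they reached 0.002 for Cr2, 0.11 for Dtx1 and 0.07 for S1pr3, so their sign was not settled. The SD over the BL/10 libraries was between 0.546 and 0.697 on this log2 scale, against 0.0418 to 0.358 in NOD.B10. The differences in these ratios were not tested.

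Levels were also set against B cell content, as reads per 1000 reads of the 17 pan-B cell genes. On this scale Fcer2a was 29.75, 28.53 and 31.47 in NOD.B10 and 27.24, 18.67 and 20.23 in BL/10, and Cd9 was 15.29, 18.69 and 12.55 against 20.42, 26.91 and 29.26. Fcer2a and Cd9 were the members whose strains did not overlap (16.3% of all genes did not), with Fcer2a higher and Cd9 lower in NOD.B10. Cr2 (122.7 to 144.1 in NOD.B10 and 86.92 to 123.1 in BL/10), Dtx1 (36.23 to 38.46 and 21.76 to 39.83) and S1pr3 (15.84 to 17.19 and 9.58 to 16.08) overlapped, and in all 3 cases BL/10 replicate 1 was the lowest library. The plot of members beside marker sums shows that Fcer2a rose with the pan-B sum within each strain. Across strains, BL/10 replicate 1 had a higher pan-B sum than NOD.B10 replicate 3 (6378 against 5830 CPM) but less Fcer2a (173.7 against 183.5 CPM).

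**Figure D3:**
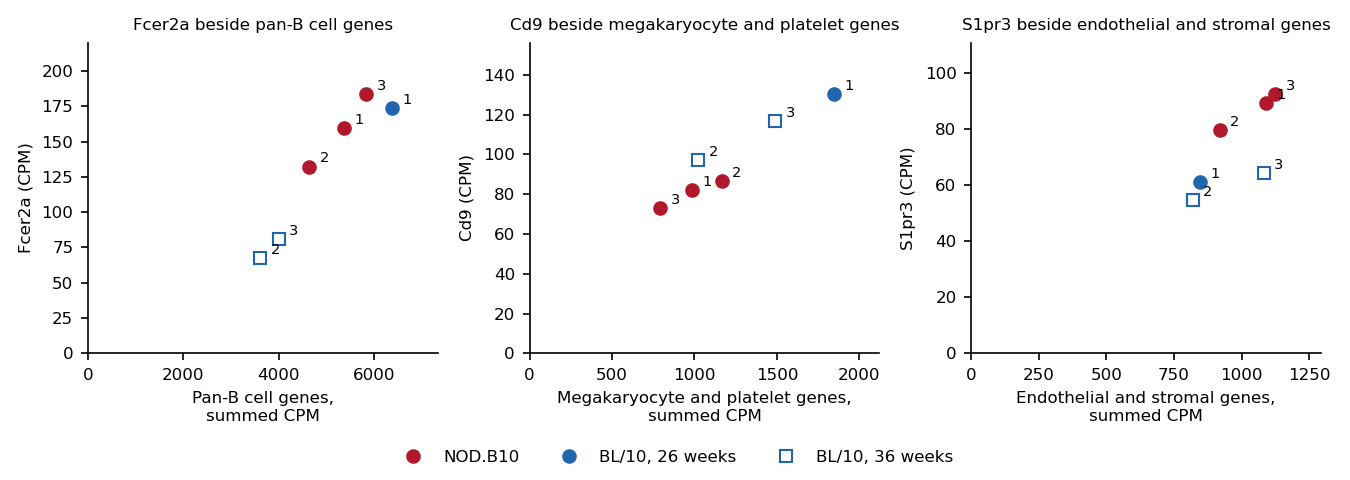
Level of Fcer2a, Cd9 and S1pr3 (vertical axes, CPM) beside the summed CPM of pan-B cell, megakaryocyte and platelet, and endothelial and stromal genes (horizontal axes), with 1 point for each of the 6 libraries and its replicate number. Fcer2a is lowest in BL/10 replicates 2 and 3, which also have the lowest pan-B sums. Cd9 is highest in BL/10 replicate 1, which has the highest platelet sum. NOD.B10 replicate 2 has less Cd9 than BL/10 replicate 2 and a higher platelet sum. Within each strain, S1pr3 has the same order of libraries as the endothelial sum. Over all 6 libraries, which share the strain difference, Pearson's r of log2 CPM between S1pr3 and the endothelial sum is 0.748. It is 0.506 with the pan-B sum, 0.932 with the sum of 15 T cell genes and -0.603 with the platelet sum. The part of these cells in the level of S1pr3 was not tested.

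When the pan-B reads were used as library sizes in edgeR, none of the 7 genes passed (12.3% of all genes did), and 1 had an unadjusted p under 0.05. This scaling moved the median of all genes by -0.24. On this scale the log2 fold changes were 0.44 for Fcer2a, 0.29 for S1pr3, 0.28 for Dtx1 and 0.27 for Cr2. Those of Notch2, Cd1d1 and Cd9 were -0.04, -0.37 and -0.72. The standard errors were between 0.32 and 0.34, wider than with TMM scaling for all but Fcer2a. Relative to the moved median the values were 0.68 for Fcer2a, 0.53 for S1pr3, 0.52 for Dtx1 and for Cr2, 0.21 for Notch2, -0.12 for Cd1d1 and -0.47 for Cd9. Subtracting the median largely takes the pan-B scaling back out, so these last values are not adjusted for B cell content. Without BL/10 replicate 1 on the same scale, a fit chosen after the data were seen in which the median moved by -0.45 and 44.4% of all genes were called, Fcer2a was called higher and Cd9 and Cd1d1 lower (adjusted p = 0.0131, 0.00785 and 0.0237 from edgeR).

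**Figure D4:**
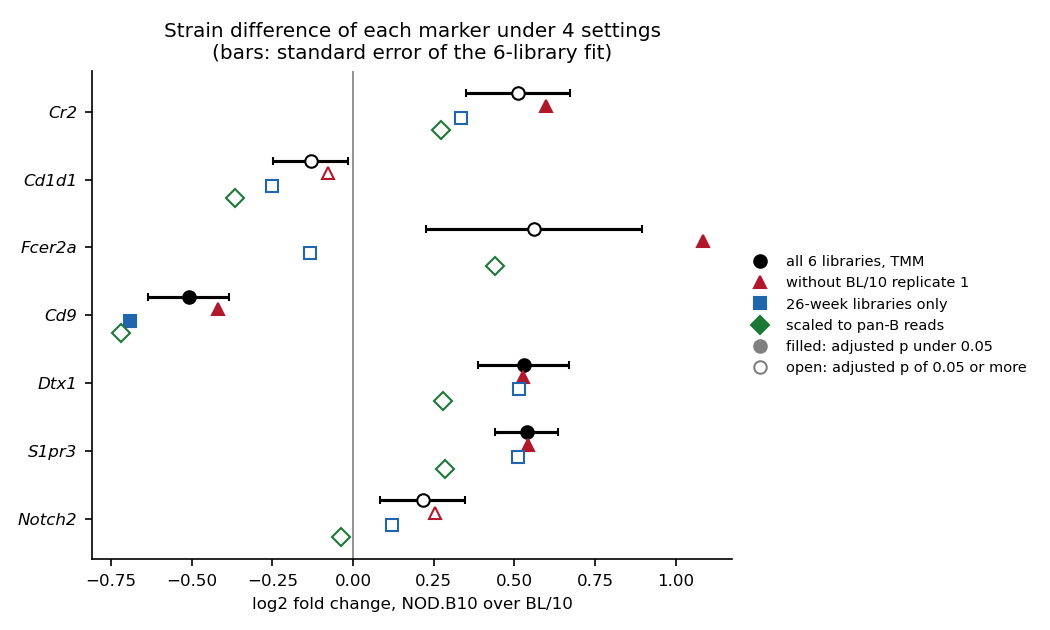
Log2 fold change of each gene (NOD.B10 over BL/10) in all 6 libraries with TMM scaling, without BL/10 replicate 1, with only the libraries labelled 26 weeks, and with pan-B reads as library sizes, where bars are the standard error of the 6-library fit and filled symbols passed an adjusted p of 0.05. S1pr3, Dtx1 and Cr2 stay above 0 and Cd9 and Cd1d1 below 0 in all 4 settings, whereas Fcer2a ranges from -0.13 to 1.08 and Notch2 falls to -0.04 with pan-B reads.

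Other genes of marginal zone and follicular B cells were read from the same fit. Of 10 further marginal zone B genes, 1 was called higher (Mzb1, a chaperone of the endoplasmic reticulum that plasma cells also make, log2 fold change 0.87, edgeR adjusted p = 0.0137) and 1 lower (Myof, a ferlin of the plasma membrane, -0.77, adjusted p = 0.00214). Fcrl5 and Ackr3, a receptor and a chemokine scavenger of marginal zone B cells, had 0.48 and 0.39 and did not pass (edgeR adjusted p = 0.0981 and 0.0531), but Fcrl5 passed without BL/10 replicate 1 (0.0229). The higher count was 2 without BL/10 replicate 1 or NOD.B10 replicate 2 and 0 without BL/10 replicate 3 or NOD.B10 replicate 3. The median of the 10 was 0.20. Of 8 further follicular B genes, with a median of 0.39, 1 was called higher (Itgb7, an integrin chain that T cells also make, 0.63, adjusted p = 0.0318), 5 were without BL/10 replicate 1, and none was without BL/10 replicates 2 or 3 or NOD.B10 replicates 1 or 3. Pan-B cell genes had a median log2 fold change of 0.18, and 0 of 17 were called by edgeR or DESeq2, with 1 unadjusted p under 0.05 in edgeR. Without BL/10 replicate 1, 9 of the 17 were called higher, and their median was 0.47. Of all genes, 9.11% were called higher and 8.22% lower with all 6 libraries, and 26.3% in either direction without BL/10 replicate 1.

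The Notch pathway was described by 3 lists that together held 40 tested genes, of which 6 were called higher (9.11% of all genes) and 3 lower (8.22%) in NOD.B10 by edgeR, with a median log2 fold change of 0.09. These counts were 4 and 4 without BL/10 replicate 1, and with pan-B reads as library sizes the median was -0.17, against -0.24 for all genes. Among receptors and ligands, 0 of 7 tested genes were called (2 by DESeq2, and 2 with an unadjusted p under 0.05 in edgeR). Dll1, the ligand of marginal zone fate, had 35.23 CPM in NOD.B10 and 31.7 CPM in BL/10 (log2 fold change 0.15 ± 0.13 SE, edgeR adjusted p = 0.45), and Notch1 had a log2 fold change of 0.36 (adjusted p = 0.0689). Among 15 genes of processing and glycosylation, 3 were called, all higher, and 1 was without NOD.B10 replicates 1 or 3. With pan-B reads as library sizes, 0 of the 15 were called (12.3% of all genes were). Lfng and Mfng, fringe glycosyltransferases that make Notch2 of B cells more responsive to Dll1, had log2 fold changes of 0.71 ± 0.11 and 0.56 ± 0.13 (SE, edgeR adjusted p = 0.00595 and 0.0212). These are levels of the whole spleen, and the part of B cells or other cells in them was not tested.

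Lfng had 105, 95.32 and 125.6 CPM in NOD.B10 and 67.13, 68.94 and 62.96 CPM in BL/10, and Mfng had 53.35, 49.87 and 57.26 CPM and 41.71, 30.51 and 36.31 CPM. The strains did not overlap for either gene, nor for 38.0% of all genes. Mib1, a ubiquitin ligase that acts on Notch ligands in the signal-sending cell, was the third (log2 fold change 0.34, edgeR adjusted p = 0.0207). Adam10, the protease that cleaves Notch2, had -0.18 (adjusted p = 0.448) and Taok3, a kinase that brings Adam10 to the surface of future marginal zone B cells, had -0.09 (adjusted p = 0.487).

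In the nucleus, Rbpj, the DNA-binding partner of the Notch2 fragment, was called lower (21.23, 18.73 and 18.21 CPM in NOD.B10 and 26.99, 23.74 and 27.33 CPM in BL/10, log2 fold change -0.43, edgeR adjusted p = 0.033). The coactivator Maml2 was called higher (0.45, adjusted p = 0.0492), whereas Maml1, the coactivator known for marginal zone B cells, was not called (0.13, adjusted p = 0.346). Dtx4 and Dtx3, relatives of Dtx1, were called in opposite directions (0.37 and -0.33, adjusted p = 0.0492 and 0.0435 from edgeR), as were Fbxw7, which marks Notch fragments for decay (0.28, adjusted p = 0.042), and the Notch target and inhibitor Nrarp (-0.79, adjusted p = 0.0345), which had at most 2.557 CPM. The target Hes1 did not pass (0.19, adjusted p = 0.268). These nuclear calls lay close to the threshold. Of the 18 genes, the 3 higher calls were 1 without BL/10 replicate 1 or NOD.B10 replicate 2 and 0 without any other single library. The 3 lower calls were 4 and 1 without BL/10 replicates 1 and 2 and 0 without BL/10 replicate 3 or any NOD.B10 replicate. They were 1 with a replicate block or upper-quartile scaling. Of 23 genes whose loss is known to change the marginal zone B pool, a list that shares 8 genes with the Notch lists, 4 were called higher (Foxo1, S1pr1, Lfng and Mfng) and Rbpj lower. There were 9 higher and 3 lower without BL/10 replicate 1, whereas 1 was higher and none lower without BL/10 replicate 3 or NOD.B10 replicates 1 or 3. Of all genes, 9.11% were called higher and 8.22% lower in the main fit. The share in either direction was 26.3% without BL/10 replicate 1. It was 11.2% without BL/10 replicate 3, and 8.12% and 8.95% without NOD.B10 replicates 1 and 3.

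**Figure D5:**
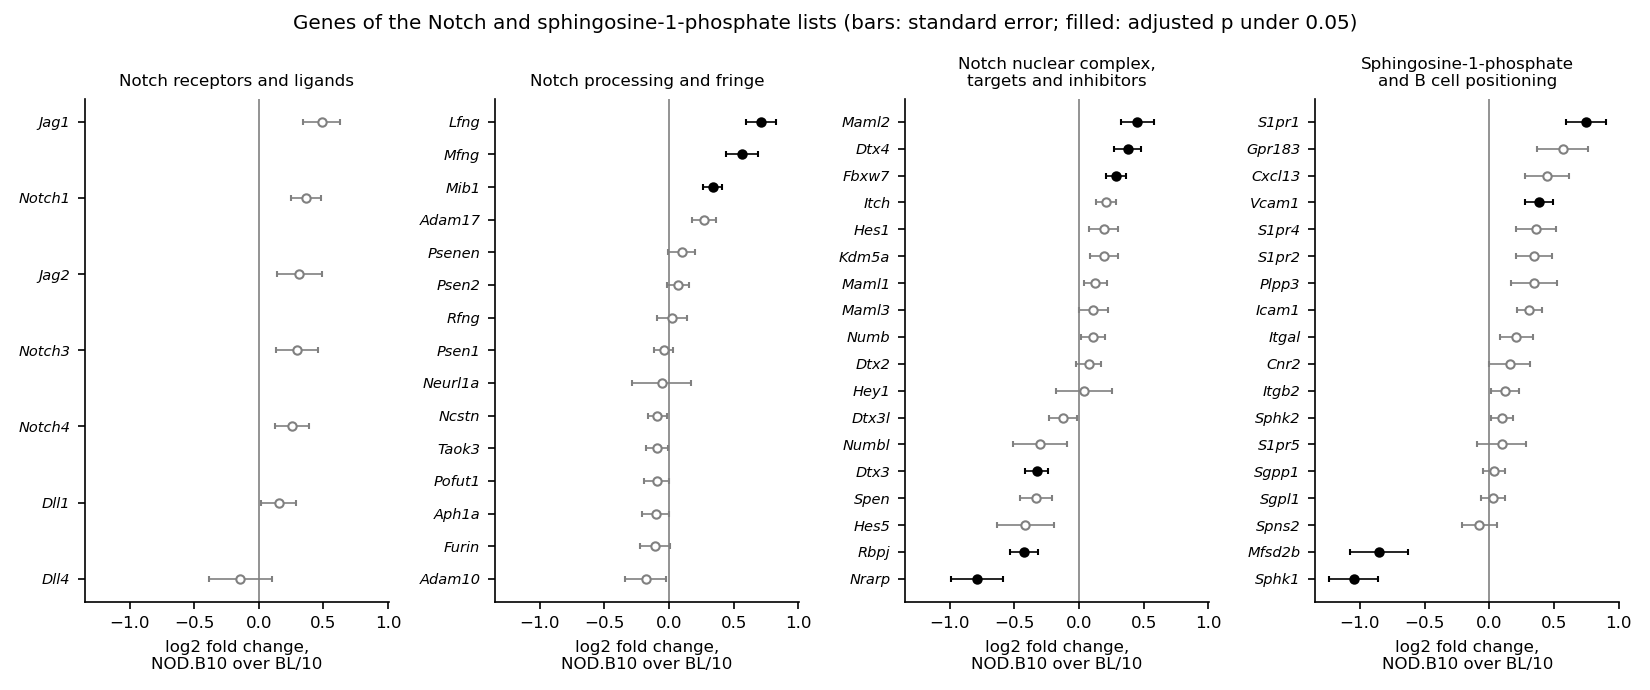
Log2 fold change (NOD.B10 over BL/10, bars, standard error) of each tested gene in the 3 Notch lists and the list on sphingosine-1-phosphate and B cell positioning, with filled points for an adjusted p under 0.05 in edgeR. Lfng (0.71), Mfng (0.56) and S1pr1 (0.75) are filled on the right, and Rbpj (-0.43), Nrarp (-0.79), Mfsd2b (-0.86) and Sphk1 (-1.05) on the left.

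Among 18 genes of sphingosine-1-phosphate and B cell positioning, 2 were called higher and 2 lower (9.11% and 8.22% of all genes), and 15 had a positive log2 fold change. The higher count was 5 without BL/10 replicate 1, 1 without BL/10 replicate 2 and 0 without BL/10 replicate 3 or NOD.B10 replicates 1 or 3, and the lower count was 1 or 2 in these fits. S1pr1, the receptor that carries lymphocytes out of the follicle and that T cells also use, had 288.7, 238.9 and 326.4 CPM in NOD.B10 and 194.9, 147.3 and 166.6 CPM in BL/10 (log2 fold change 0.75 ± 0.15 SE, edgeR adjusted p = 0.0153). It moved beside T cell genes, of which 13 of 15 were called higher, with summed levels of 1063 to 1400 CPM in NOD.B10 and 498.1 to 649.7 CPM in BL/10, and the part of T cells in the level of S1pr1 was not tested. The receptors S1pr2, S1pr4 and S1pr5 had log2 fold changes between 0.10 and 0.36 and did not pass, but without BL/10 replicate 1 S1pr2 and S1pr4 did (edgeR adjusted p = 0.0366 and 0.0158). Sphk1, a kinase that makes the ligand, was called lower (-1.05 ± 0.19 SE, edgeR adjusted p = 0.0098), and so was Mfsd2b, the exporter of red blood cells and platelets (-0.86, adjusted p = 0.0372). Vcam1, an adhesion molecule that holds marginal zone B cells and that red pulp macrophages make, was called higher (0.39, adjusted p = 0.0492).

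Of the 8 tested partners of CD21, CD23 and CD1d, 1 was called higher, the interferon-inducible Ifitm1 (0.79, edgeR adjusted p = 0.00487), and without BL/10 replicate 1 there were 2 higher and 1 lower. Of all genes, 9.11% were called higher in the main fit, and 26.3% in either direction without BL/10 replicate 1. Cd81, a tetraspanin that associates with CD21, had 0.14 (edgeR adjusted p = 0.324). Cr1l, a complement regulator next to Cr2, had 0.04 (adjusted p = 0.725).

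Markers of other cells moved unequally. Neutrophil genes were called lower for 10 of 11 and eosinophil and basophil genes for 7 of 8, with none higher. Of all genes, 8.22% were called lower and 9.11% higher in the main fit, and 26.3% in either direction without BL/10 replicate 1. Among marginal zone and red pulp macrophage genes, which mark neighbors of marginal zone B cells, 2 of 10 were called higher (Siglec1 and Vcam1) and 3 lower (Cd209b, Cd5l and Slc40a1). Both higher calls were lost without BL/10 replicate 1 (edgeR adjusted p = 0.0633 for Siglec1 and 0.0786 for Vcam1), where 4 were lower, and also without BL/10 replicates 2 or 3 or NOD.B10 replicate 1. Cd209b, a lectin of marginal zone macrophages, had a log2 fold change of -1.57 (adjusted p = 0.000202 from edgeR), whereas Marco, a scavenger receptor of the same cells, had 0.12 (adjusted p = 0.543). Dendritic cell genes, which mark other cells with Notch2, were called for 1 of 10 (2 without BL/10 replicate 2), Clec4a4 (1.22, adjusted p = 0.00631 from edgeR), and their sums overlapped (287.8 to 329.2 CPM in NOD.B10 and 299.0 to 316.7 CPM in BL/10). B-1 cell genes were called for 1 of 6, Cd5, which T cells also make. Erythroid genes were called for 1 of 10, Hba-a2, which has the near-identical copy Hba-a1, and for 4 without BL/10 replicate 1. All 10 tested pancreas acinar genes were called lower, but none was without NOD.B10 replicates 1 or 3 and 1 was without NOD.B10 replicate 2.

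Likeness of pattern was measured by Pearson's r of log2 CPM over the 6 libraries against 11545 genes with a mean of at least 5 CPM. These libraries share the strain difference, and many genes reach a high r (for S1pr3, 1146 genes had r above 0.9, for Cd1d1 51), so the nearest genes are a description. Nearest to Cr2 were Mtg2, Map2k1 and 4632404H12Rik, and nearest to Fcer2a were Pgap1, Grcc10 and H2-Ob. Kif1a, Ripor3 and Gm13456 lay nearest to Cd9, and Zxdc, Cep170b and Dtx4 to Dtx1. For S1pr3 they were Jade2, Plekha5 and Slc43a2, for Notch2 AU040320, Esyt1 and Hlcs, and for Cd1d1 Meis2, Washc5 and Slc16a7. The r of these 21 genes was between 0.98 and 1.00. Within the list, S1pr3 and Dtx1 were most alike (r = 0.974) and S1pr3 and Cd9 least (r = -0.788).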

How the data were processed

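Whole-spleen libraries of 3 mice per strain were sequenced from 1 end. The file deposited by the authors holds unnormalized read counts. Its header names featureCounts (version 1.5.1) with the Ensembl 84 annotation of GRCm38, and no strand option or multi-mapping reads were used. The study names Tophat2 as the aligner, and the submitters' processing notes name HISAT2 version 2.0.5. NOD reads were aligned to a C57BL/6J reference, and the effect of this on the counts was not tested. The table also holds gene lengths, which the authors deposited as another value without a sample. Of 47729 identifiers, 47310 matched GENCODE M21.

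Libraries were assigned by the library number and strain shared by descriptions and column names. The 7 genes and all lists were chosen with earlier results of these data known. The lists came from general knowledge. Genes were kept by filterByExpr (15330), normalized by TMM and compared by edgeR's quasi-likelihood test (edgeR version 4.0.16, R version 4.3.3) relative to BL/10, with p-values adjusted by Benjamini-Hochberg across the 15330 genes. All 7 genes were named, as were all called genes of the Notch, sphingosine-1-phosphate, CD21 partner and other B cell lists, up to 4 genes with the smallest p of other lists, and the 3 genes most like each of the 7. Genes of these lists that did not pass, and Marco, were named for their role after their values were seen. Counts of replicates differed by more than sampling noise (the lowest ratio of chi-square to its degrees of freedom was 13.6). Alternatives were DESeq2 (version 1.42.0), other scalings and filters, a replicate block, leaving out libraries and a stricter threshold.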

Additional observations from a re-analysis of the deposited data

How the results depend on the processing

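Across all genes, 2656 were called. The count was 1001 with only the libraries labelled 26 weeks, 1035 at an adjusted p under 0.01, 6916 with pan-B reads as library sizes and without BL/10 replicate 1 (added after the data were seen), and between 1269 (without NOD.B10 replicate 1) and 4107 (without BL/10 replicate 1) when single replicates were dropped. Of the 7 genes, 3 were called, against 1 with the 26-week libraries (Cd9), 1 at an adjusted p under 0.01 (S1pr3), 0 with pan-B reads, and between 0 and 5 when single replicates were dropped. The 0 was without NOD.B10 replicate 1 (edgeR, 4 genes with an unadjusted p under 0.05, and 8.12% of all genes called) and the 5 without BL/10 replicate 1. Without NOD.B10 replicate 3, 1 gene was called, S1pr3. DESeq2 and the absence of a filter beyond 1 count each called 4, with Cr2 added (17.6% and 11.5% of all genes). RLE scaling (17.5%), upper-quartile scaling (17.0%), leaving out hemoglobin and immunoglobulin genes (17.7%), and a minimum of 10 counts in every library (14.8%) each called Cd9, Dtx1 and S1pr3, as in the main result. Log2 fold changes kept their sign in all settings, except Fcer2a with the 26-week libraries (-0.13) and Notch2 with pan-B reads (-0.037, and -0.21 without BL/10 replicate 1). The cause of these changes was not tested. Ratios to Fcer2a differed between strains by the same amounts per RPKM, by construction, and TPM leaves the order within a library as it is, so it was not run apart.

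Replicate numbers did not pair the libraries. Deviations from the strain means correlated by 0.032, 0.17 and -0.084 between libraries of the same number, and not every library correlated best with its own number. With a replicate block, 2889 genes and 3 of the 7 (Cd9, Dtx1 and S1pr3) were called. Each of the 7 genes had 526 or more reads in every library. The spread between the 3 libraries of a strain, the unsettled strain labels and the differing age labels remained as limits, and their weight was not compared.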
